A study of Mus musculus with 15 samples.

Results

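DNA methylation is written, kept through cell division, removed and read by a small set of enzymes and binding proteins, and 9 of their genes were followed here in mouse liver. They are Dnmt1, Dnmt3a, Dnmt3b, Uhrf1, Tet1, Tet2, Tet3, Tdg and Mbd2, chosen by gene symbol from the 55573 genes of the count table, and all 9 were present. Livers of 8-week-old mice of the strain B6N(Cg)-Esr1tm4.2Ksk/J were sequenced, and each mouse gave 1 library. The WT females (FWT, n = 3) and WT males (MWT, n = 3) were the controls for homozygous ESR1KO females (FKO, n = 5) and ESR1KO males (MKO, n = 4), which carry a deletion of an exon of Esr1 on both alleles and so lack the estrogen receptor alpha in every tissue, not in liver alone. The study's text describes raised testosterone in ESR1KO mice of both sexes, so the loss of the receptor and the changed hormones cannot be told apart in these groups. The study asked how sex-biased methylation arises in liver, and the question here is whether the genes of the methylation machinery differ in RNA level between the sexes or with the loss of ESR1. DNA methylation itself and enzyme activity were not measured in these libraries.

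In mammals methyl groups sit mostly on cytosines followed by guanine (CpG). DNMT3A and DNMT3B place them on unmethylated DNA, whereas DNMT1, guided by UHRF1 to the hemimethylated sites behind a replication fork, copies them to the new strand. The TET enzymes oxidise methylated cytosine, and the DNA glycosylase TDG cuts out the more oxidised bases so that repair can restore plain cytosine. Without repair, methylation can also fade passively when it is not copied at replication. MBD2 binds methylated CpG and is a reader rather than a writer or an eraser. Adult liver holds few dividing cells, so that maintenance after replication takes place in few of them at any time.

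CpG is the sequence on which the products of these genes act, and 4 of their promoters are shown with every CpG in capitals. All 4 hold more CpG than the median promoter, which is not so of every start site of the 9 genes. RefSeq start sites on GRCm38.p6 were matched by symbol for 8 of the 9 genes, with 13 promoters in all, and the 250 bases before each start were used. The Tet2 promoter is shown because Tet2 was the gene that differed between the sexes, Tet3 as the most abundant Tet gene per length, and Dnmt1 and Uhrf1 as the maintenance pair. They read 5′ to 3′ on the strand of the gene, at chr3:133544391-133544640 (minus strand) for Tet2, chr6:83441679-83441928 (minus) for Tet3, chr9:20952624-20952873 (minus) for Dnmt1 and chr17:56304063-56304312 (plus) for Uhrf1.
Tet2: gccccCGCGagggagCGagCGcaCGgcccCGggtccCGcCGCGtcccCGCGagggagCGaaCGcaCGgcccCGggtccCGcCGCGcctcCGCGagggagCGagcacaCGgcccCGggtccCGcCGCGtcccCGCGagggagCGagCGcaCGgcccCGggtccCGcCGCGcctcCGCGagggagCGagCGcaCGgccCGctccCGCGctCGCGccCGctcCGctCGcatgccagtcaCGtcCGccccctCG
Tet3: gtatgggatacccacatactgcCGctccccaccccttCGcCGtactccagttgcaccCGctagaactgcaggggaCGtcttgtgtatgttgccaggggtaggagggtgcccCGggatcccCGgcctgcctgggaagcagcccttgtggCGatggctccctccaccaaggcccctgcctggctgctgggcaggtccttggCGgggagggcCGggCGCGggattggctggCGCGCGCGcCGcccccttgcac
Dnmt1: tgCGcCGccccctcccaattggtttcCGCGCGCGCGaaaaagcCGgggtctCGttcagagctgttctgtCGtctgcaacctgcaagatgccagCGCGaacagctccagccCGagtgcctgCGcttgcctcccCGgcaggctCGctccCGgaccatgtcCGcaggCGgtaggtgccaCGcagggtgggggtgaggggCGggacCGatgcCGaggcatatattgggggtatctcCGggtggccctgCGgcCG
Uhrf1: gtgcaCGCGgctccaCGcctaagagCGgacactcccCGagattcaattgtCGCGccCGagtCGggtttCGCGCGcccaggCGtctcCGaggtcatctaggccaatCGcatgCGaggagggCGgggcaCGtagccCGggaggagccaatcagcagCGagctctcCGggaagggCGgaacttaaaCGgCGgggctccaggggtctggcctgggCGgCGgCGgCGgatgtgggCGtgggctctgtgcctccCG
The Tet2 window held 51 CpG, and 99.9% of the 32851 mouse promoters of the same length, whose median was 6, held fewer. The Uhrf1 window held 30 CpG, the Dnmt1 window 26 and the Tet3 window 17. Over the 13 promoters the number ran from 2, at the most upstream of the 3 Dnmt1 starts, to 51. Motifs were searched on both strands. The estrogen response element GGTCANNNTGACC was in none of the 13 and in 0.0639% of all promoters. One arm of it, AGGTCA, was in the Uhrf1 window shown, in the Tet1 window and in 1 of the 3 Dnmt3a windows, against 14% of all promoters. The STAT5 motif TTCNNNGAA was found once, at Tdg, against 7.02% of all promoters. An E2F motif, searched as TTTCCCGC, TTTCGCGC, TTTGCCGC or TTTGGCGC, was in the Dnmt1 and Uhrf1 windows shown and in 1.86% of all promoters. At Uhrf1 it read TTTCGCGC and began at base 66 of the window, and at Dnmt1 it read GCGCGAAA, the same letters on the other strand, and began at base 32. A match of letters is a description of the sequence and not a site of binding.

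Total counts ranged from 27799061 to 78624766 per mouse. Counts are given as CPM, the counts of a gene relative to the total of its library after TMM scaling, which adjusts for composition. A gene was called when the adjusted p of edgeR's quasi-likelihood F test, fitted over all 15 libraries and corrected by Benjamini-Hochberg over 17655 tested genes, was under 0.05. All 9 genes passed the filter on low counts. Esr1 itself was at 81.9 ± 6.79 CPM in FWT, 36.1 ± 14.1 in MWT, 13.1 ± 4.01 in FKO and 11.8 ± 3.35 in MKO (SD). FKO1 stood apart from FKO3, FKO4 and FKO5 over all genes, with a chi-square per gene of 209.59 to 358.27. The other pairs of mice within a group were at 21.96 to 182.97. FKO1 and FKO2 were nearer to each other (60.48). FKO2 was at 78.21 from FKO3, 139.05 from FKO5 and 182.97 from FKO4, and FKO4 was at 111.82 from FKO5. Outside FKO the largest value was 61.79, between MKO2 and MKO3. For Tet2, Tet3, Dnmt1 and Dnmt3b the genotype effect in females is given with and without FKO1. Without FKO2 it was -0.40, -0.32, -0.11 and -0.07 on the log2 scale, in that order. The female transcript Xist and the Y genes matched the labelled sex in all 15 libraries. Albumin, the main secreted protein of hepatocytes, was abundant in every library, at 53500 to 91600 CPM.

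Per kilobase of exon (RPKM, on the GENCODE M21 gene models) the methyl-CpG reader Mbd2 stood highest, at 10.5 ± 0.565 RPKM (SD over 15 libraries). Dnmt1 followed at 2.80 ± 0.408, Dnmt3a at 2.32 ± 0.330, Tet3 at 2.02 ± 0.323, Tdg at 1.79 ± 0.205 and Tet2 at 1.58 ± 0.354 RPKM. Uhrf1 was at 0.398 ± 0.203, Dnmt3b at 0.334 ± 0.0490 and Tet1 at 0.0371 ± 0.00856 RPKM. The steps from Mbd2 to Dnmt1, from Tet2 to Uhrf1 and from Dnmt3b to Tet1 held in 15 of 15 libraries, and those from Dnmt1 to Dnmt3a and from Dnmt3a to Tet3 in 14 of 15. Tet3 was above Tdg in 12 libraries, Tdg above Tet2 in 10 and Uhrf1 above Dnmt3b in 7, so these neighbours in the order were not separated in every mouse. Tet1, at 13 to 48 reads per library, lay at the 1.04th percentile of tested genes and Mbd2 at the 82.8th. Of the summed RPKM of the Dnmt genes, Dnmt1 took 51.2%, Dnmt3a 42.7% and Dnmt3b 6.16% on average. The shares and the order rest on the length of all annotated exons merged, 7377 bases for Dnmt1 and 16642 for Dnmt3a. In CPM Dnmt3a was above Dnmt1, with group means of 36.5 to 42.3 against 18.8 to 21.8. Of the summed Tet RPKM, Tet3 took 55.7%, Tet2 43.3% and Tet1 1.04%. The counts do not separate the isoforms that Dnmt1, Dnmt3a and Uhrf1 make from several start sites. Liver is a mixture of cells, and fewer cells of a type and less RNA per cell cannot be told apart in any of these levels.

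**Figure D1:**
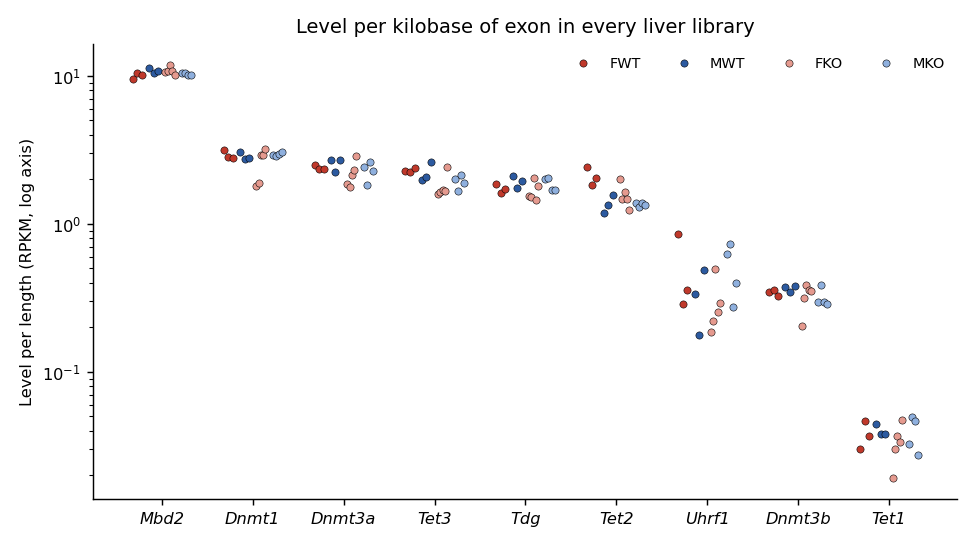
Level per kilobase of exon (RPKM, log axis) of the 9 genes, ordered by mean level, with 1 point per mouse and colours for the 4 groups. Mbd2 lies near 10.5 RPKM and Tet1 near 0.0371 RPKM, while Dnmt1, Dnmt3a, Tet3, Tdg and Tet2 crowd between 1.58 and 2.80 on average.

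Of the 9 genes, 1 was called in any of the 6 contrasts tested. It was Tet2, higher in WT females than in WT males, in a contrast where 4.87% of tested genes were called. In ESR1KO livers 0 of 9 were called between the sexes, against 0.272% of tested genes. The genotype effect, ESR1KO against WT, was called for 0 of 9 in females, against 5.71% of tested genes, and for 0 of 9 in males, against 1.42%. The interaction, which asks whether the genotype effect differs between the sexes, was called for 0 of 9 (1.94% of tested genes), and so was the mean genotype effect over both sexes (4.13%). By edgeR's unadjusted p under 0.05 the counts were 1, 0, 2, 0, 1 and 2 of 9 in the order WT sex difference, ESR1KO sex difference, genotype effect in females, genotype effect in males, interaction and mean genotype effect. In the same order 3060, 3092, 3973, 2099, 2520 and 3425 of all 17655 tested genes had such a p. DESeq2's Wald test called Tet2 in the WT sex difference and in the genotype effect in females, and no member in the other contrasts. The median log2 fold change of the 9 was -0.147 in females and -0.066 in males for the genotype effect, beside -0.001 for all genes in each. A single call among 9 genes is not far from these backgrounds.

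**Figure D2:**
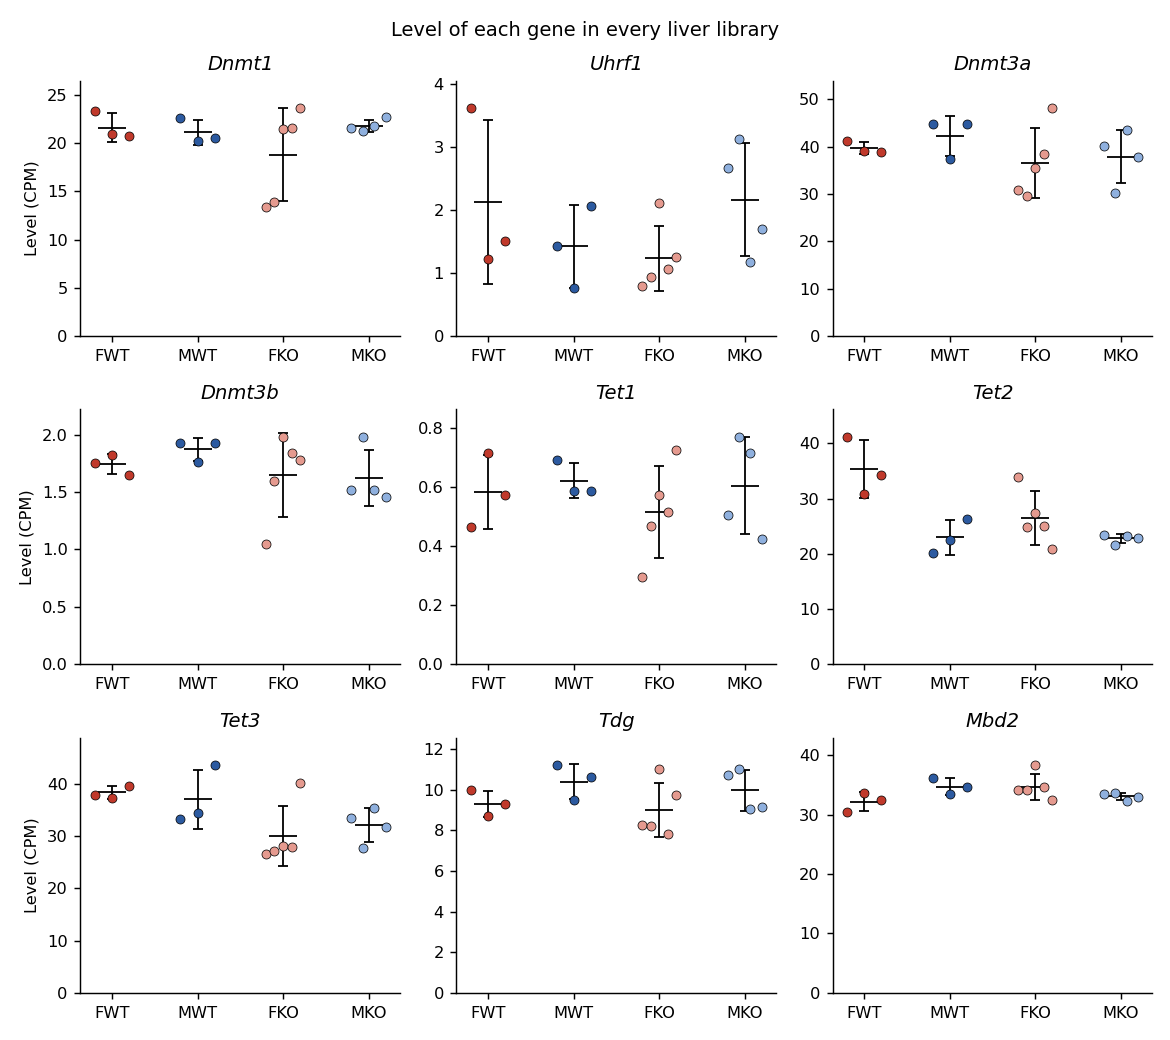
Level of each of the 9 genes (CPM, linear axes from 0) in every library, with 1 point per mouse and the mean ± SD of each group. Tet2 is the panel in which FWT (30.8 to 41.2 CPM) and MWT (20.1 to 26.3 CPM) do not overlap, and 2 FKO mice lie apart from the other libraries in the Dnmt1 panel, at 13.4 and 13.9 CPM.

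Tet2 (ENSMUSG00000040943, chr3:133463679-133545139, minus strand, GRCm38) encodes a dioxygenase that oxidises methylated cytosine and that blood cells need to restrain their stem cells. It was at 41.2, 30.8 and 34.3 CPM in the FWT mice and at 20.1, 22.6 and 26.3 CPM in the MWT mice. All 3 females thus lay above all 3 males, as was the case, in either direction, for 30.1% of tested genes in this contrast. The fitted difference was 0.62 on the log2 scale (SE 0.154, 95% interval 0.30 to 0.95), or 1.54-fold, with an adjusted p of 0.0244 by edgeR. The FKO mice were at 34.0, 24.9, 27.5, 25 and 20.9 CPM and the MKO mice at 23.5, 21.7, 23.3 and 22.8 CPM. FKO1 fell within the FWT range and the other 4 FKO mice between 20.9 and 27.5 CPM, close to the males, and the 4 MKO mice lay between 21.7 and 23.5 CPM.

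The sex difference of Tet2 within ESR1KO mice was 0.21 (95% interval -0.06 to 0.48, adjusted p = 0.390 by edgeR), and 0.11 without FKO1 (adjusted p = 0.736). In females, loss of ESR1 went with a log2 difference of -0.42 (95% interval -0.71 to -0.14), whose unadjusted p of 0.00648 became 0.0781 after adjustment. In males it was -0.01 (95% interval -0.32 to 0.29, adjusted p = 0.990). The test of the difference between these genotype effects gave -0.41 (95% interval -0.83 to 0.01, adjusted p = 0.36), so a genotype effect in females that differs from that in males was not shown. WT and ESR1KO comparisons share mice, and these values are not independent of each other. Groups overlapped in the ESR1KO sex difference and in both genotype effects, where 5.22%, 15.6% and 15.9% of tested genes did not overlap.

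The call of Tet2 was lost when some single mice were left out. The WT sex difference lost it without FWT1 (adjusted p = 0.129), FWT3 (0.0627), MWT1 (0.135) or MWT2 (0.0865), and kept it in the other 11 fits with 1 mouse left out. Its log2 difference stayed between 0.50 and 0.73 in these 15 fits, and only 3 mice stood on each side. The difference between FKO and FWT passed the threshold without FKO1 (-0.53, adjusted p = 0.0155) and in DESeq2 (adjusted p = 0.0491). Over all genes edgeR called 860 in the WT sex difference with all 15 mice. Without FWT1, FWT3, MWT1 or MWT2 it called 541 to 617, without FWT2 608 and without MWT3 788.

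**Figure D3:**
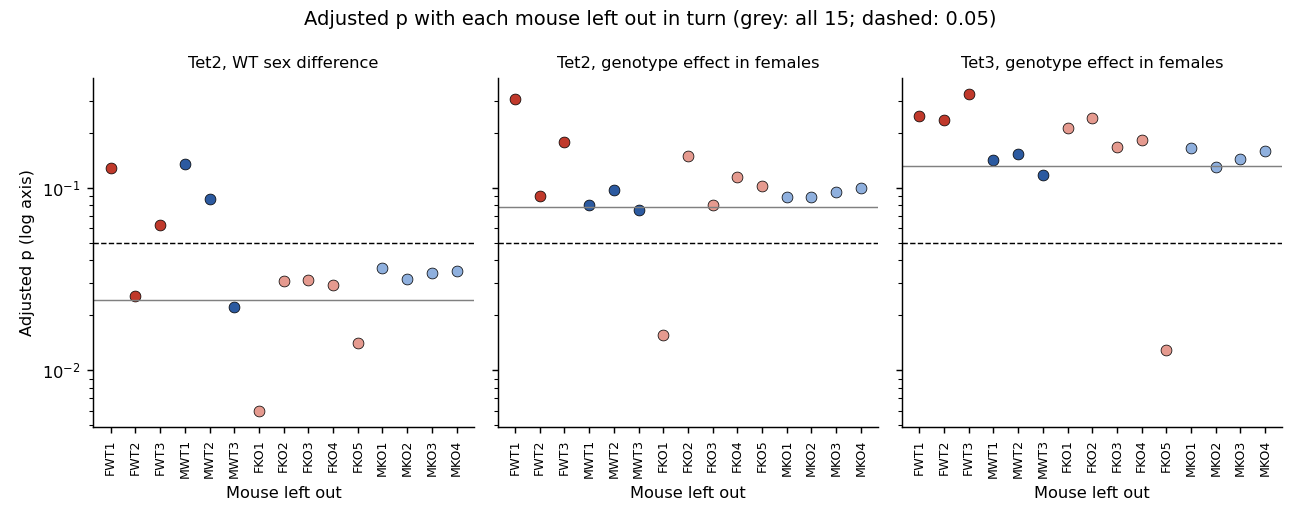
Adjusted p (edgeR, log axis) of Tet2 in the WT sex difference and of Tet2 and Tet3 in the genotype effect in females, with each of the 15 mice left out in turn. The grey line is the value with all 15 mice and the dashed line is 0.05. The first panel has 4 points above 0.05, and the others have 1 point each below it, for FKO1 and FKO5.

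Markers of the cell types of liver are given beside the Tet2 difference, and their part in it was not tested. The summed CPM of 8 hepatocyte markers was 109000 to 114000 in FWT and 82900 to 84000 in MWT, with 1 of 8 called by edgeR, Alb (0.66, adjusted p = 0.0382). Alb itself was at 86400 ± 4600 CPM in FWT and 54600 ± 1230 CPM in MWT (SD) and carried this sum, whereas 3 of the 8 estimates were above 0 and their median was -0.16. DESeq2 called 4 of the 8 in this contrast, Alb, Apoa1, Fgb and Ttr. The 8 sinusoidal endothelial markers summed to 620 to 630 CPM in FWT and 441 to 594 in MWT, the 8 Kupffer cell and macrophage markers to 415 to 507 and 391 to 422, and the 8 stellate cell markers to 531 to 675 and 517 to 667, with none called by edgeR in this contrast and 1 of 8 in each list at an unadjusted p under 0.05. Over all genes 3060 of 17655 had such a p, and 4.87% were called by edgeR. DESeq2 called none of these 3 lists there. Estimates were above 0 for 7 of 8 endothelial markers (median 0.23) and 7 of 8 Kupffer cell and macrophage markers (0.19). They were above 0 for 5 of 8 stellate cell markers (0.12). The 9 lymphocyte markers summed to 24.6 to 32.4 CPM in FWT and 22.5 to 31.2 in MWT, with Cd3g called higher and Cd4 called lower in females. Of these 9 estimates 8 were above 0, with a median of 0.51. Ptprc, 1 of the 9, carried the lymphocyte sum, at 20.7 to 25.7 CPM in FWT and 18.5 to 24.5 in MWT. The 6 cholangiocyte markers summed to 32.5 to 33.1 and 34.1 to 55.7 CPM, with Epcam higher and Sox9 lower, and the 6 neutrophil markers to at most 1.08 and 1.22 CPM. Among the cholangiocyte estimates 4 of 6 were above 0 (median 0.14). Spp1 carried the cholangiocyte sum, at 28.5 to 29.3 CPM in FWT and 30.4 to 51.2 in MWT. The 8 erythroid markers summed to 79.0 to 550 in FWT and 343 to 691 in MWT, with 1 called, the heme synthesis gene Alas2 at -2.97 (adjusted p = 2.26e-06). Among the erythroid estimates 1 of 8 was above 0 (median -0.26). No marker was at 0 in all 15 libraries.

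By the rule for genes of similar pattern, those closest to Tet2 over the 15 libraries, among 11640 genes, were Zfp113, a zinc finger gene (Pearson's r = 0.890), Trim24, a nuclear receptor cofactor (0.887), and Rfk, the riboflavin kinase (0.874). About the group means the same r were 0.701, 0.653 and 0.645, and they are given as a description, since the points share libraries and scaling. Trim24 was at 102, 86.3 and 80.0 CPM in FWT and at 20.8, 21.6 and 30.9 CPM in MWT, and its WT sex difference of 1.87 was larger than that of Tet2. The FKO mice held Trim24 at 26.2 to 49.1 CPM, with the highest value in FKO1, the mouse that was also highest among FKO for Tet2. Rfk was at 50.4 to 56.3 CPM in FWT and 27.5 to 36.3 CPM in MWT.

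Tet3 (ENSMUSG00000034832, chr6:83362373-83459084, minus strand), the most abundant Tet gene per length, encodes the enzyme known for oxidising the paternal genome of the zygote. It was at 38.0, 37.4 and 39.7 CPM in FWT and at 33.3, 34.4 and 43.6 CPM in MWT, and the sexes overlapped (log2 difference 0.05, 95% interval -0.27 to 0.37, adjusted p = 0.912). FKO mice were at 26.7, 27.1, 28.2, 27.9 and 40.2 CPM and MKO mice at 33.5, 27.8, 35.5 and 31.7 CPM. FKO1 to FKO4 lay below all 3 FWT mice, and FKO5 lay above them. With FKO5 the difference between FKO and FWT was -0.35 (95% interval -0.64 to -0.07, unadjusted p = 0.0183, adjusted p = 0.132 by edgeR), and without it -0.48 (adjusted p = 0.0129). Without FKO1 it was -0.31 (adjusted p = 0.212). The mean genotype effect over both sexes was likewise -0.28 (unadjusted p = 0.0108, adjusted p = 0.119), and -0.34 without FKO5 (adjusted p = 0.0153). Within males the difference was -0.21 (95% interval -0.51 to 0.09).

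Tet2 and Tet3 did not vary together over the 15 mice (Pearson's r = 0.140, permutation p = 0.62; Spearman's rho = 0.107, permutation p = 0.70). This was 1 of 5 relations computed between members or with S phase genes, chosen after the values were seen, and adjusted p are given over these 5 (0.62 and 0.70 here). The adjustment does not cover the pairs that were not chosen. All 5 relations are therefore given as a description, and their points share libraries and scaling. Without FWT1 and FWT3, the mice farthest from the median of Tet2, r was -0.215. The Tet2 share of the summed Tet RPKM was 47.2% ± 3.73 in FWT and 37.6% ± 1.19 in MWT (SD), 46.3% ± 7.93 in FKO and 40.9% ± 1.66 in MKO.

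Tet1 (ENSMUSG00000047146, chr10:62804570-62908996, minus strand), a Tet enzyme of embryonic stem and germ cells, was at 0.464, 0.715 and 0.573 CPM in FWT, at 0.692, 0.587 and 0.587 in MWT and at 0.506, 0.770, 0.714 and 0.426 in MKO. FKO mice were at 0.296, 0.469, 0.573, 0.517 and 0.724 CPM. The groups overlapped in all contrasts of groups, and the 95% intervals of the log2 differences reached from -0.74 to 0.55 in WT and from -0.73 to 0.44 for the genotype in females. A fall of 1.5-fold lay inside both intervals and could not be told from no change at these counts.

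Dnmt1 (ENSMUSG00000004099, chr9:20907209-20959888, minus strand), the maintenance methyltransferase, was at 23.3, 20.9 and 20.7 CPM in FWT, at 22.6, 20.2 and 20.5 in MWT and at 21.6, 21.2, 21.8 and 22.7 in MKO. In FKO it was at 13.4, 13.9, 21.5, 21.6 and 23.6 CPM. FKO1 and FKO2 were thus below all other mice, FKO3 and FKO4 were within the range of the other groups, and FKO5 was the highest of all. Because of this split the FKO SD was 4.79 CPM, against 1.47 in FWT, 1.34 in MWT and 0.617 in MKO. The fitted difference between FKO and FWT was -0.20 (95% interval -0.53 to 0.13, adjusted p = 0.471) and -0.10 without FKO1 (adjusted p = 0.719), and the sex differences were 0.04 in WT (adjusted p = 0.949) and -0.21 in ESR1KO (adjusted p = 0.443).

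Uhrf1 (ENSMUSG00000001228, chr17:56303321-56323486, plus strand), which recruits DNMT1 to newly replicated DNA, was the most variable of the 9. It was at 3.61, 1.22 and 1.51 CPM in FWT, at 1.43, 0.758 and 2.06 in MWT, at 0.796, 0.938, 2.11, 1.07 and 1.25 in FKO and at 2.67, 3.13, 1.17 and 1.69 in MKO. Values thus differed several fold within a group, and all groups overlapped. The interaction was -1.36 on the log2 scale (95% interval -2.63 to -0.09), with an unadjusted p of 0.0367 and an adjusted p of 0.315 by edgeR. It was -0.71 without FWT1, the highest mouse, and the WT sex difference of 0.57 became -0.07 without it.

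The level of Uhrf1 followed that of 25 genes of S phase and mitosis, among them Mki67, Top2a and the Mcm helicase genes. Their summed CPM was lowest in FKO1 (90.6) and highest in FWT1 (177), where Uhrf1 was at 0.796 and 3.61 CPM. The thymidine kinase gene Tk1 held an uneven part of this sum. It made up 19.5 of the 90.6 CPM in FKO1, 40.6 of 177 in FWT1, 44.0 of 109 in FWT2 and 47.7 of 126 in FWT3. Relations to a sum without Tk1 were not computed. Over the 15 mice Pearson's r between the log2 values was 0.882 and Spearman's rho 0.921, each with a permutation p of 1e-05, the smallest that 100000 resamples can give, and 5e-05 after adjustment over the 5 relations. Like the others, this relation was chosen after the values were seen. Without FWT1 and MKO2, the mice farthest from the median sum, r was 0.819 (permutation p = 0.00087), and about the group means of all 15 mice it was 0.906. For Dnmt1 and the same sum r was 0.520 (permutation p = 0.052, adjusted 0.065) and rho 0.389 (permutation p = 0.15, adjusted 0.19), with r = 0.639 (permutation p = 0.022) without FWT1 and MKO2. For Uhrf1 and Dnmt1 r was 0.520 (permutation p = 0.043, adjusted 0.065) and rho 0.439 (permutation p = 0.10, adjusted 0.17), with r = 0.521 (permutation p = 0.068) without the same mice, also farthest from the median of Uhrf1. Both Dnmt1 relations without FWT1 and MKO2 still held FKO1 and FKO2, the only mice with Dnmt1 outside 20.2 to 23.6 CPM. Relations without FKO1 and FKO2 were not computed. FKO1 and FKO2, which were lowest for Dnmt1, had sums of 90.6 and 99.2 CPM. MWT2 and MKO3 had sums of 99.5 and 99.7 CPM, with Dnmt1 at 20.2 and 21.8 CPM. What part cell division had in the low Dnmt1 of FKO1 and FKO2 was not tested.

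**Figure D4:**
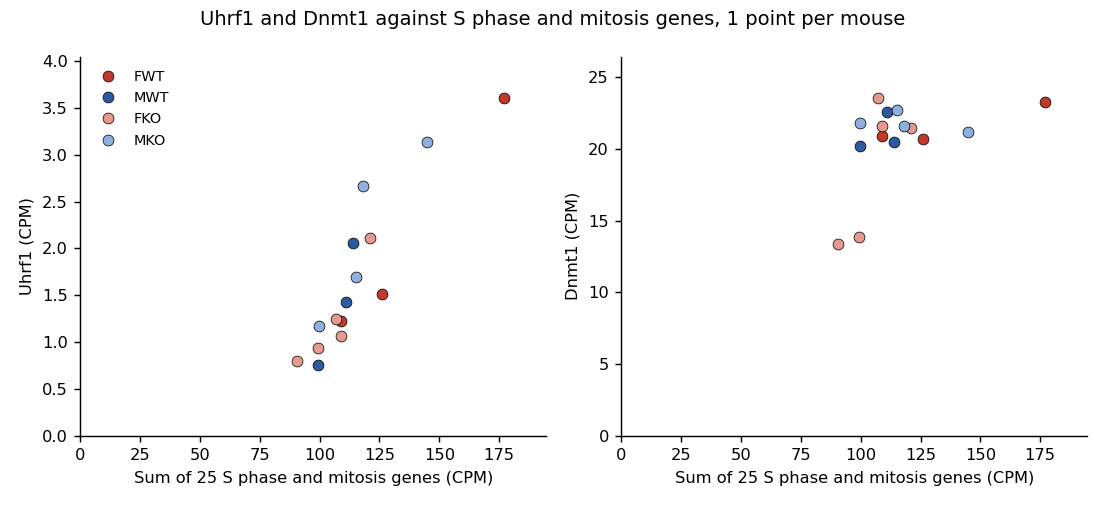
CPM of Uhrf1 and of Dnmt1 against the summed CPM of 25 S phase and mitosis genes, with 1 point per mouse, colours for the 4 groups and all axes starting at 0. Uhrf1 rises with the sum from 90.6 to 177 CPM, while Dnmt1 stays between 20.2 and 23.6 CPM in all mice but FKO1 and FKO2.

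Of the 25 S phase and mitosis genes 1 was called in the WT sex difference, Tk1, the thymidine kinase of the nucleotide salvage pathway. It was at 40.6, 44.0 and 47.7 CPM in FWT, at 26.3, 27.7 and 25.4 CPM in MWT and at 19.5 to 27.1 CPM in FKO. All 3 FWT mice lay above all the others, of which the highest was an MKO mouse at 34.9 CPM. FWT and MWT did not overlap for 30.1% of tested genes, and FWT and FKO for 15.6%. By edgeR 4.87% of tested genes were called in the WT sex difference, 5.71% in the genotype effect in females and 1.94% in the interaction. Tk1 fell by 0.91 on the log2 scale between FWT and FKO (adjusted p = 0.000955 by edgeR), with an interaction of -0.90 (adjusted p = 0.0327). Estimates were above 0 for 20 of the 25 genes in the WT sex difference and for 5 of 25 in the genotype effect in females, with medians of 0.36 and -0.26, and apart from Tk1 none of them passed the test.

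Dnmt3a (ENSMUSG00000020661, chr12:3806007-3914443, plus strand), the main de novo methyltransferase of somatic tissue, was at 41.3, 39 and 38.9 CPM in FWT, at 44.7, 37.4 and 44.7 in MWT, at 30.8, 29.5, 35.5, 38.5 and 48.1 in FKO and at 40.2, 30.2, 43.5 and 37.8 in MKO. The lowest and the highest value of all were both in FKO. No contrast reached an unadjusted p under 0.05, and the estimates lay between -0.16, for the genotype in males, and 0.04, for the interaction. Dnmt3a varied with Tet3 over the 15 mice (Pearson's r = 0.799, permutation p = 0.00034, adjusted 0.00085; Spearman's rho = 0.807, permutation p = 0.00058, adjusted 0.0014). This pair was chosen after the values were seen, and the adjustment does not cover the pairs that were not chosen. Without FKO2 and MKO2, farthest from the median of Dnmt3a, r was 0.733 (permutation p = 0.0036), and about the group means it was 0.812. Both were at their highest among FKO in FKO5, at 48.1 and 40.2 CPM.

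Dnmt3b (ENSMUSG00000027478, chr2:153649450-153687730, plus strand), the de novo methyltransferase of the early embryo, was at 1.75, 1.82 and 1.65 CPM in FWT, at 1.93, 1.76 and 1.93 in MWT, at 1.05, 1.60, 1.98, 1.84 and 1.78 in FKO and at 1.52, 1.98, 1.52 and 1.46 in MKO. FKO1 was the lowest of the 15 mice, as it was for Tet1, Tet3 and Dnmt1. The genotype effect was -0.08 in females (95% interval -0.46 to 0.31), or 0.05 without FKO1, and -0.21 in males (95% interval -0.62 to 0.19), neither past the threshold. Dnmt3l, the catalytically inactive partner of the de novo enzymes in germ cells, had 1 count over all 15 libraries.

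Tdg (ENSMUSG00000034674, chr10:82629828-82650799, plus strand), which removes the bases that the TET enzymes oxidise furthest, was at 9.96, 8.69 and 9.28 CPM in FWT, at 11.2, 9.49 and 10.6 in MWT, at 8.26, 8.22, 11, 7.83 and 9.72 in FKO and at 10.7, 11, 9.06 and 9.16 in MKO. The WT sex difference was -0.16 (95% interval -0.45 to 0.12, adjusted p = 0.599). Of its exon bases 6.83% overlap Glt8d2 on the other strand, and the strand setting of the counting is not given in the sources used here. Such overlap was 0.80% for Dnmt3a and 0.25% for Tet2.

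Mbd2 (ENSMUSG00000024513, chr18:70568189-70626131, plus strand) had the narrowest intervals of the 9 genes. It was at 30.4, 33.6 and 32.5 CPM in FWT, at 36.2, 33.4 and 34.7 in MWT, at 34.1, 34.2, 38.3, 34.7 and 32.4 in FKO and at 33.4, 33.6, 32.3 and 32.9 in MKO. The mean genotype effect was 0.02 (95% interval -0.10 to 0.14) and the WT sex difference -0.11 (95% interval -0.29 to 0.07), so differences of more than 1.5-fold lay outside these intervals.

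**Figure D5:**
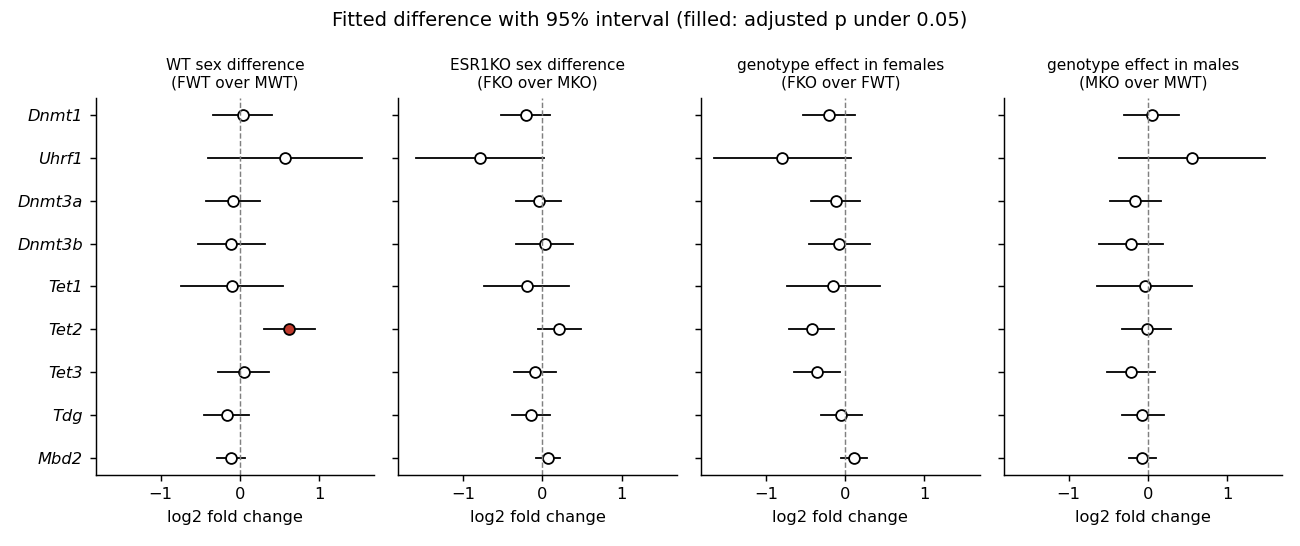
Fitted log2 fold change (circle) and its 95% interval (line) for the 9 genes in the sex differences (females over males) and the genotype effects (ESR1KO over WT). The filled circle, Tet2 in WT at 0.62, is the gene called at an adjusted p under 0.05, and Uhrf1 has the widest lines.

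Over the 9 genes and 6 contrasts, 49 of the 54 intervals lay within a 2-fold difference in either direction and 36 within a 1.5-fold difference. All 5 that reached beyond 2-fold belonged to Uhrf1. For the other 8 genes a difference larger than 2-fold in group means therefore lay outside the 95% interval in every contrast, whereas smaller differences could have been missed.

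The partners of these enzymes were examined as lists. Beside their counts at an unadjusted p under 0.05 in edgeR stand 2099 to 3973 of all 17655 tested genes, depending on the contrast. Beside their calls by edgeR stand 4.87% of tested genes in the WT sex difference and 1.94% in the interaction. Over the 6 contrasts this share ran from 0.272% to 5.71%. Of 9 other methyl-CpG readers, all tested, Mbd1 was called in the interaction (1.04, SE 0.255, adjusted p = 0.0458), and no reader was called by edgeR in the other 5 contrasts, where 1 to 3 had an unadjusted p under 0.05. Mbd1, a reader that also binds unmethylated CpG, was at 44.9, 59.4 and 56.0 CPM in FWT and at 79.2, 80.9 and 66.9 in MWT. In FKO it was at 83.6, 69.8, 73.4, 45.0 and 82.6 CPM and in MKO at 40.2, 59.5, 43.7 and 51.9 CPM. All WT males lay above all WT females, an absence of overlap found for 30.1% of tested genes. In ESR1KO 4 of the 5 females lay above all 4 males. DESeq2 called Mbd1 in the interaction and in males, and Zbtb33 in females.

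Of 20 partners of the writers and of maintenance, among them Uhrf2, Hells, Pcna, Trim28 and Setdb1, 18 were tested and edgeR and DESeq2 called 0 in each of the 6 contrasts. In the 108 tests of this list 12 had an unadjusted p under 0.05 in edgeR, against 2099 to 3973 of all 17655 genes per contrast. Uhrf2, the relative of Uhrf1, was at 46.7 ± 0.946 CPM in FWT, 45.1 ± 3.47 in MWT, 50 ± 4.16 in FKO and 40.4 ± 5.13 in MKO (SD).

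Of 24 genes of demethylation and base repair 22 were tested, and Polb, the repair polymerase that fills the gap after base excision, was called in the WT sex difference. It was at 12.2, 12.9 and 13.0 CPM in FWT and at 22.2, 17.5 and 18.2 CPM in MWT (-0.60, SE 0.165, adjusted p = 0.0467). Every WT male was thus above every WT female, the opposite order to Tet2. The WT sexes did not overlap for 30.1% of tested genes. In the other 5 contrasts edgeR called 0 of 22, with 2 to 6 at an unadjusted p under 0.05, and DESeq2 called Apex1 in the WT sex difference and in females, Polb in the interaction and Dcaf1, Idh1 and Ung in the mean genotype effect.

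Of 15 genes of the methyl donor cycle, Mat1a, the liver enzyme that makes S-adenosylmethionine, was called in the WT sex difference (0.74, adjusted p = 0.0120) and in the interaction (-0.91, adjusted p = 0.0305). It was at 3340, 3590 and 3780 CPM in FWT and at 1990, 2400 and 2020 CPM in MWT. The sexes did not overlap, as was so for 30.1% of tested genes in WT. FKO mice were at 2180 to 3550 CPM and MKO mice at 2960 to 3460 CPM, so that the MKO mice were above all MWT mice. MKO and MWT did not overlap for 15.9% of tested genes. By edgeR 0 of 15 were called in the other 4 contrasts, with 1 to 5 at an unadjusted p under 0.05. DESeq2 called Mat1a in the WT sex difference, in males and in the interaction, Amd1 in females and in the interaction, and Nnmt in females.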

How the data were processed

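Liver RNA was extracted with TRIzol, depleted of ribosomal RNA and sequenced as paired-end reads on a NovaSeq, with a second run for low samples. After trimming and STAR alignment to GRCm38, reads were assigned to genes by the authors with HT-Seq Count. Raw counts of 15 libraries were deposited, not normalized. The submitters' notes name Trimmomatic 0.36 and HTSeq 0.6.0. The annotation release and the strand setting are not given in the sources used here. No mice were pooled, and p-values measure the spread between mice.

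The main tool was edgeR 4.0.16 in R 4.3.3. filterByExpr with the 4 groups kept 17655 genes, libraries were scaled by TMM (factors 0.9568 to 1.0354), and the quasi-likelihood F test was fitted to all 15 libraries with Benjamini-Hochberg adjustment. The 95% intervals come from the F statistic and its degrees of freedom. CPM use the TMM scaling, and RPKM the summed exon length per gene of GENCODE M21. Relations between genes across mice used log2 CPM and permutation tests with 100000 resamples (scipy 1.17.1), two-sided. Alternatives were DESeq2 1.42.0, its size factors, total counts, other filters, a minimum log2 fold change of 1.5, only the groups compared, a replicate block and each mouse left out in turn. No library was a repeat of another: chi-square per gene between replicates was at least 21.96, where a repeated library would give about 1. The fits were tested on simulated data.

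The 9 genes and the lists were chosen with earlier results of these data known. All 9 members were named, with the list genes past the threshold (at most 4 per list and contrast) and the 3 genes most correlated with each called member. DESeq2 calls outside this rule, Tet1's place among the lowest genes, Dnmt3l, Uhrf2 and the 5 relations were named after the values were seen.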

Additional observations from a re-analysis of the deposited data

Results flagged for a closer look

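In 2 of 18 groups of 4 or 5 mice, over the 9 genes, 1 mouse lay far from the rest, by the gap to its nearest neighbour as a share of the range (Dixon's ratio). Chance alone puts about 1 in 20 groups past that limit. Tet3 in FKO5 was at 40.2 CPM, with the other FKO mice at 26.7 to 28.2 CPM (ratio 0.887). Dnmt3b in MKO2 was at 1.98 CPM, with the other MKO mice at 1.46 to 1.52 CPM (ratio 0.894).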

How the results depend on the processing

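Of the 54 values (9 genes in 6 contrasts), 1 was past the threshold, Tet2 in the WT sex difference, and it stayed past it in each alternative with every mouse and no minimum fold, with adjusted p from 0.00672 in DESeq2 to 0.0315 in a fit of only the groups compared. A minimum log2 fold change of 1.5 left 0 calls there, since it exceeds the fitted 0.62. With 1 mouse left out, the number of members called ran from 0 to 1 in the WT sex difference, in the genotype effect in females and in the mean genotype effect. DESeq2 called 1 member in females, Tet2. The replicate block also called 1 in females and 1 in the mean genotype effect, both Tet3 (-0.48, adjusted p = 0.0157, and -0.34, adjusted p = 0.0266), and gave 0.61 for Tet2 in WT (adjusted p = 0.0203). Mice with the same number in different groups did not deviate together (r from -0.195 to 0.14 over 19 pairs, median -0.023, against 0.017 for 64 other pairs), and 1 of 15 libraries correlated best with its own number, so the numbers do not pair the mice. FKO5 was the only mouse with its number, so the replicate block fitted it exactly and in effect left it out of the contrasts. The fits without FKO5 likewise gave -0.48 for Tet3 in females and -0.34 in the mean genotype effect. The cause of the other changes was not tested. The filter of 1 CPM in 3 libraries left 8 of the 9 genes tested.

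In 17 results the sign changed under some alternative, and in each of these 46 values the adjusted p was at least 0.765. With the replicate block these were Dnmt1 in males (-0.016), Dnmt3a and Tdg in the interaction (-0.091 and -0.021), Dnmt3b in the ESR1KO sex difference (-0.004), Tet2 in males (0.009) and Uhrf1 in the mean genotype effect (0.037). Without a filter they were Dnmt1 (-0.015) and Tet3 (-0.004) in the WT sex difference. With 1 mouse left out, log2 values ran as follows. In the WT sex difference they were -0.022 to 0.089 for Dnmt1, -0.264 to 0.055 for Tet1, -0.025 to 0.181 for Tet3 and -0.074 to 0.966 for Uhrf1. In the ESR1KO sex difference they were -0.175 to 0.019 for Dnmt3a and -0.04 to 0.156 for Dnmt3b. For the genotype in females they were -0.148 to 0.048 for Dnmt3b, -0.324 to 0.02 for Tet1 and -0.129 to 0.003 for Tdg, and in males -0.174 to 0.121 for Tet1 and -0.102 to 0.095 for Tet2. In the interaction they were -0.086 to 0.116 for Dnmt3a, -0.282 to 0.062 for Tet1 and -0.064 to 0.079 for Tdg, and for the mean genotype effect -0.263 to 0.205 for Uhrf1 and -0.001 to 0.035 for Mbd2.

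Calls over all genes, on which the backgrounds rest, moved with the tool and with single mice. DESeq2 called 1225 genes in the WT sex difference where edgeR called 860, and 456 against 48 in the ESR1KO sex difference. The counts were 1546 against 1008 in females, 499 against 250 in males, 594 against 343 in the interaction and 1235 against 729 for the mean genotype effect. Without a filter edgeR called 313 and 411 in the ESR1KO sex difference and in males. With only the groups compared it called 26 in the ESR1KO sex difference, 457 in females and 422 in males. With 1 mouse left out, edgeR called 541 (without MWT1) to 1096 (without FKO1) genes in the WT sex difference, 26 (without MKO3) to 109 (without FKO5) in the ESR1KO sex difference and 413 (without FWT3) to 1538 (without FKO5) in females. It called 100 (without MWT3) to 331 (without FKO1) in males, 242 (without FWT1) to 393 (without FKO3) in the interaction and 353 (without MWT3) to 1017 (without FKO5) for the mean genotype effect. Tet1, Uhrf1 and Dnmt3b had the fewest reads, 13 to 210 per library.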
